A study of Mus musculus with 6 samples.

Results

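The subject is the expression of 46 human genes for heat shock proteins, other molecular chaperones and the factors that assist or control them, in tumours grown from NCI-H2228 cells and taken 6 h after CH5424802 was given by mouth. The genes were chosen by name, as a list that runs from the cytosolic chaperones to those of the mitochondrion and the endoplasmic reticulum (ER). The list was drawn up with earlier results of these data known. Each was read from the brightest probe set that the platform annotation assigns to that gene alone. Of the 46 genes, 42 had such a probe set with a mean log2 intensity of at least 4 and were tested, among 10271 tested genes in all. HSPA8 and TCP1 had only probe sets shared with other genes, no probe set was listed under HSF2 or AHSA1, and these 4 genes were not analysed here.

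NCI-H2228 is a human cell line from a lung adenocarcinoma with the EML4-ALK fusion, in which the ALK kinase is constantly active. The cells were grown as tumours beneath the skin of SCID mice, which lack functional T and B lymphocytes. The doses were vehicle, 4 mg/kg and 20 mg/kg, CH5424802 being an ALK kinase inhibitor later named alectinib, and each of the 3 groups has 2 arrays of human probe sets. All the tumours come from 1 cell line, mouse is the organism given in the labels, and nothing there tells whether the arrays of 1 dose are from different mice, so a p-value reflects only how these arrays vary, which may be technical variation.

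Chaperones bind unfolded or partly folded proteins and release them as they fold, most of them in cycles driven by ATP. HSP70 proteins are loaded by J proteins and unloaded by nucleotide exchange factors such as the BAG proteins and HSPH1, and HSP90 takes over late folding steps of kinases and receptors, EML4-ALK among its known clients. The heat shock factor HSF1 switches on many cytosolic members when unfolded proteins accumulate, and the unfolded protein response does the same for chaperones of the ER.

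Values are deposited intensities, corrected for background and normalized by the authors with GCRMA and given here on their linear scale. Changes are differences between group means of log2 intensity, with the standard error (SE) of limma's linear model over all 6 arrays. A gene passed where limma's p-value, adjusted over the 10271 genes by the Benjamini-Hochberg method, was under 0.05. Intensities of different genes depend on their probes and are not compared with each other.

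All 9 markers chosen for the cell line, among them EPCAM, KRT18, ALK and EML4, were over the level limit, and their summed intensity was 92253 to 102723 with vehicle, 98113 to 100422 after 4 mg/kg and 81532 to 88362 after 20 mg/kg. Among the 9, KRT18, a keratin of simple epithelia, fell at 20 mg/kg (4355 and 5822, against 14435 and 14819.9 with vehicle, adjusted p = 0.0416). Both 20 mg/kg arrays lay under both vehicle arrays in 5 of the 9 and above them in 2, EPCAM and CDH1. These shares were 25.9% and 24.5% over all tested genes. EPCAM read 18393 and 21461 at 20 mg/kg, against 13258 and 14899 with vehicle, and did not pass (limma adjusted p = 0.104). Markers of other cell types were over the level limit in 7 of 10 cases for fibroblasts, 2 of 6 for leukocytes and 2 of 5 for endothelium. In tumours of a human line grown in mice, cells of these types would come from the mouse. How far the human probe sets read mouse RNA was not measured, so these values are no measure of such cells. DCN, counted among the 7, read 63.3 in every array, and LYZ of the leukocyte list read 51.6 to 51.9. Of the fibroblast list, COL1A1 ran from 31585 to 36324 over the 6 arrays and FAP from 449 to 848, while LUM, PDGFRB and THY1 lay at or near the lowest intensity of the arrays. Of the endothelial list, PECAM1 ran from 348 to 456 and VWF, CDH5 and TEK lay near that lowest value, as did PTPRC, CSF1R and TYROBP of the leukocyte list. In RNA from whole tumours, fewer cells of a type and less RNA per cell cannot be told apart. The array's 18S ribosomal RNA control gave 1713 and 4058 with vehicle, 489 and 374 after 4 mg/kg and 573 and 637 after 20 mg/kg; it moved with every comparison against vehicle given here, and its part in them was not tested.

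At 20 mg/kg, 1 chaperone gene rose and 5 fell against vehicle. DNAJB4 rose, and BAG3, HSPH1, CCT2, CCT3 and SERPINH1 fell. These 6 are 14.3% of the 42 genes, where 4.33% of all tested genes passed in either direction. Because earlier results of these data were known when the list was made, the gap between such shares is not a test of the list. The median change of the 42 genes was -0.08 on the log2 scale, against 0.00 for all tested genes. In 10 genes both 20 mg/kg arrays lay above both vehicle arrays (23.8%, against 24.5% of all tested genes) and in 19 both lay below (45.2%, against 25.9% of all tested genes). At an unadjusted p under 0.05 stood 12 of the 42 (28.6%, against 24.2% of all tested genes). The members had a higher median log2 level (11.54, against 8.63 for all tested genes). Both arrays of some group held the same value in 5 of the 42 genes and in 3316 of the 10271. Such ties were present in all 3 groups in 0 and 531 genes. The shares of all tested genes, here and below, were not matched to the members for level or ties.

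At 4 mg/kg, 0 of the 42 genes passed limma's test against vehicle, where 0.0584% of all tested genes did. At an unadjusted p under 0.05 stood 15 of the 42 (35.7%, against 17.0% of all tested genes). With vehicle replicate 2 as the only vehicle array, the changes were -0.50 for HSPB1, 2.12 for DNAJB4, 1.75 for CHORDC1, -0.28 for HSF1 and -0.31 for SERPINH1. Calls given below for that fit rest on 1 vehicle array. In 15 genes both 4 mg/kg arrays lay above both vehicle arrays (35.7%, against 22.8% of all tested genes) and in 13 below (31.0%, against 14.8%), with a median change of -0.02. Between 20 and 4 mg/kg, BAG3 alone passed (2.38% of the members, against 0.37% of all tested genes). Both 20 mg/kg arrays lay above both 4 mg/kg arrays in 7 genes (16.7%, against 13.6%) and below them in 19 (45.2%, against 22.8%).

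The arrays of 8 members stood in the order of the doses without overlap. DNAJB4 and HSPA5 stood in rising order, 4.76% of the members against 4.61% of all tested genes. HSPA4, BAG3, CCT2, CCT7, DNAJB11 and SERPINH1 stood in falling order, 14.3% of the members against 5.24% of all tested genes.

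**Figure D1:**
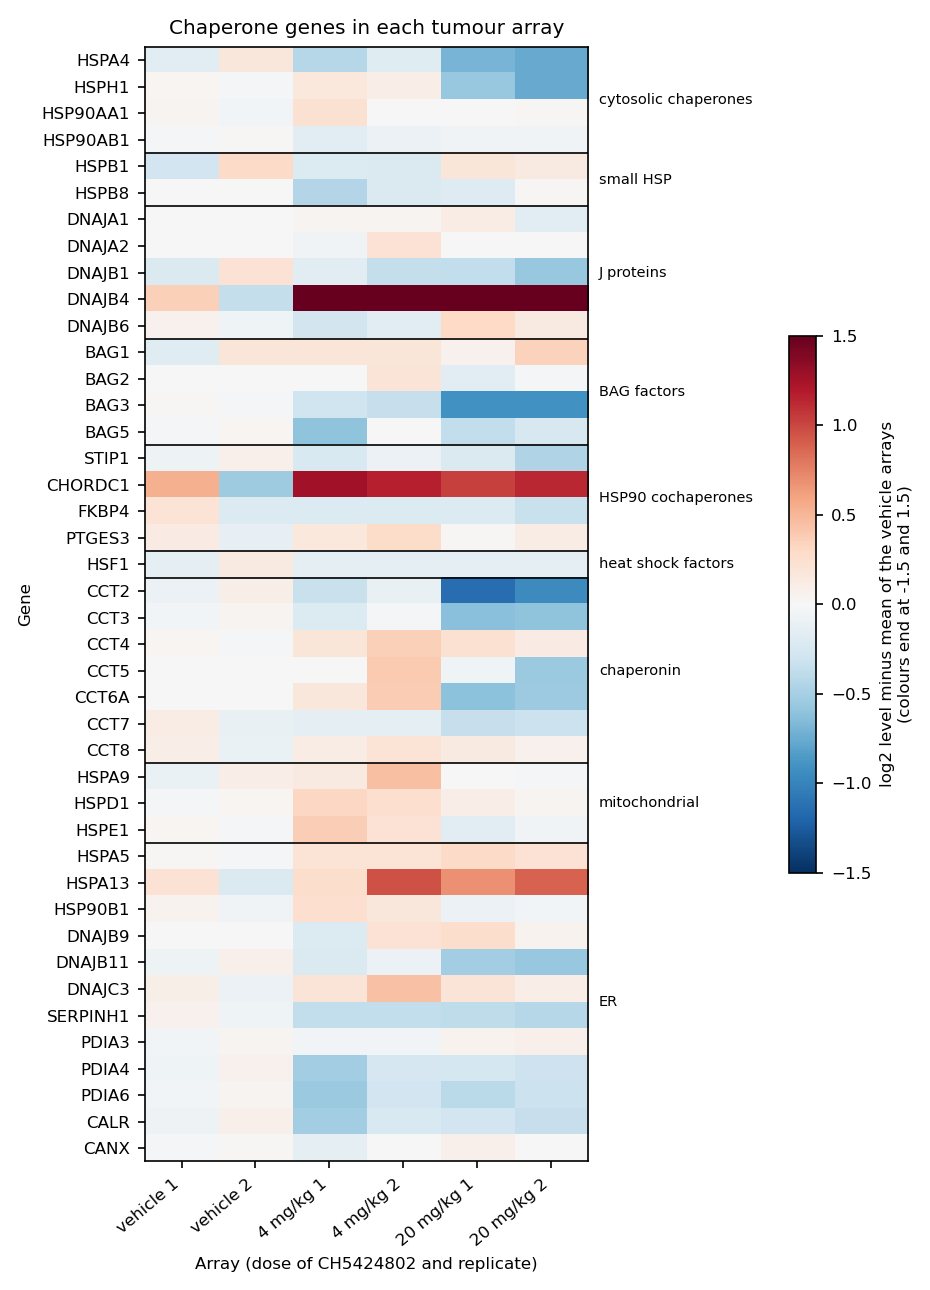
Log2 intensity of the 42 tested genes (down the page, by class) in each of the 6 arrays (across), minus the mean of the 2 vehicle arrays of that gene. Red is above and blue below the vehicle mean, with colours ending at -1.5 and 1.5; DNAJB4 is beyond the scale in all 4 treated arrays, and CCT2 and BAG3 are bluest in the 20 mg/kg arrays.

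Among the cytosolic chaperones, the HSP110 gene HSPH1 fell at 20 mg/kg, and both HSP90 genes kept close to their vehicle levels by their brightest probe sets. HSPH1, which strips ADP from HSP70 and helps to dissolve aggregates, read 3222 and 3097 with vehicle, 3517 and 3397 after 4 mg/kg and 2135 and 1869.8 after 20 mg/kg. Both 20 mg/kg arrays lay far under the other 4, and the 4 mg/kg arrays lay slightly above vehicle, though a dimmer HSPH1 probe set gave -0.68 at 4 mg/kg. The change at 20 mg/kg was -0.66 (SE 0.0778, adjusted p = 0.0420), a 1.58-fold lower level, and at 4 mg/kg it was 0.13 (SE 0.0778, adjusted p = 0.511). Between 20 and 4 mg/kg it was -0.79 (adjusted p = 0.0812). The call at 20 mg/kg was lost whichever of the 6 arrays was left out, with changes of -0.76 to -0.56 and adjusted p of 0.0827 to 0.142.

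HSPA4, another HSP110 protein, read 1701 and 2146 with vehicle, 1420.0 and 1686 after 4 mg/kg and 1180.4 and 1136 after 20 mg/kg. The arrays ran downward with dose and did not overlap between groups. The change at 20 mg/kg was -0.72 (SE 0.155, adjusted p = 0.1002) and did not pass; it passed when the arrays were quantile normalized (adjusted p = 0.016) or centred on their medians (adjusted p = 0.00866). The next brightest HSPA4 probe set gave -0.34 at 20 mg/kg and 0.31 at 4 mg/kg, and so was not in falling order.

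HSP90AA1, the stress-inducible HSP90, read 27231 and 25709 with vehicle, 30939.6 and 26445 after 4 mg/kg and 26383 and 26772 after 20 mg/kg, and the groups overlapped. HSP90AB1, the constitutive HSP90, read 16433 and 16869 with vehicle, 14925 and 15709 after 4 mg/kg and 16109 and 16109 after 20 mg/kg. Its treated arrays lay under both vehicle arrays by a small margin, with changes of -0.05 at 20 mg/kg (SE 0.0355) and -0.12 at 4 mg/kg. A dimmer HSP90AB1 probe set gave -0.24 at 20 mg/kg and -0.19 at 4 mg/kg. Another gave -0.24 and -0.52, with 4 mg/kg arrays far apart (5248 and 9569). The HSP90AA1 changes were 0.01 (SE 0.0906) at 20 mg/kg and 0.11 at 4 mg/kg.

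The small heat shock proteins hold unfolded proteins for refolding without using ATP. HSPB1, also called HSP27, read 2602 and 3871 with vehicle, 2747 and 2734 after 4 mg/kg and 3607 and 3481 after 20 mg/kg, and the spread within vehicle covered the 20 mg/kg arrays. HSPB8, which works in a complex with BAG3, read 1393 and 1414 with vehicle, 1037 and 1203 after 4 mg/kg and 1223 and 1421 after 20 mg/kg. Its 4 mg/kg arrays lay under both vehicle arrays, with a change of -0.33 (SE 0.113, adjusted p = 0.289), while at 20 mg/kg the groups overlapped and the change was -0.09 (SE 0.113). The change of HSPB1 was 0.16 at 20 mg/kg and -0.21 at 4 mg/kg, and the value at 4 mg/kg was -0.50 and passed without vehicle replicate 1 (adjusted p = 0.0423).

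The J proteins, which hand substrates to HSP70 and trigger its ATPase, held the 1 member that rose. DNAJB4, a J protein close in sequence to DNAJB1, read 129 and 79.3 with vehicle, 350.2 and 339 after 4 mg/kg and 491 and 509 after 20 mg/kg. All 4 treated arrays lay well above both vehicle arrays, and the 20 mg/kg arrays lay above those at 4 mg/kg. The change at 20 mg/kg was 2.30 (SE 0.260, adjusted p = 0.0396), a 4.94-fold higher level. The lower dose gave 1.77 (SE 0.260, adjusted p = 0.150), a value that did not pass but did without vehicle replicate 1 (2.12, adjusted p = 0.0327). At 20 mg/kg the call held without either vehicle array and was lost without any 1 of the 4 treated arrays, where the change ran from 2.28 to 2.33 and the adjusted p reached 0.186.

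The other DNAJB4 probe set, dimmer, read 86.3 and 86.0 with vehicle, 86.5 and 86.3 after 4 mg/kg and 150.1 and 118 after 20 mg/kg. Its change at 20 mg/kg was 0.63, against 2.30 by the brighter one, and its 4 mg/kg arrays were level with vehicle.

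DNAJB1, the main stress-inducible cytosolic J protein and a classic HSF1 target, had lower values at 20 mg/kg. It read 3716 and 5025 with vehicle, 3829.9 and 3376 after 4 mg/kg and 3338 and 2924 after 20 mg/kg. Both 20 mg/kg arrays lay under both vehicle arrays, and the change of -0.47 (SE 0.188, adjusted p = 0.253) did not pass. DNAJB6, known for keeping aggregation-prone polyglutamine proteins soluble, read 1412 and 1295 with vehicle, 1115 and 1208 after 4 mg/kg and 1659 and 1486 after 20 mg/kg. It was highest at 20 mg/kg and lowest at 4 mg/kg, with changes of 0.22 (adjusted p = 0.256) and -0.22 (adjusted p = 0.341) against vehicle. DNAJA1 and DNAJA2, the abundant type A partners of cytosolic HSP70, had changes of no more than 0.08 in either direction by their brightest probe sets. Dimmer ones gave 0.37 (DNAJA1) and 0.38 (DNAJA2) at 4 mg/kg, with both arrays above both vehicle arrays. At 20 mg/kg those gave 0.08 and 0.16.

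Of the BAG proteins, which open the nucleotide pocket of HSP70, BAG3 fell and the others did not pass. BAG3, the stress-inducible member that links HSP70 to HSPB8 and to selective autophagy, read 5495 and 5399 with vehicle, 4440.2 and 4276 after 4 mg/kg and 2911 and 2913 after 20 mg/kg. The 2 arrays of each dose differed little and the groups stepped down with dose without overlap. The change at 20 mg/kg was -0.90 (SE 0.0287, adjusted p = 0.0104), a 1.87-fold lower level. BAG3 was also lower at 20 than at 4 mg/kg by test, with a change of -0.58 (SE 0.0287, adjusted p = 0.0342), whereas at 4 mg/kg against vehicle it was -0.32 (SE 0.0287, adjusted p = 0.114).

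The call of BAG3 against vehicle held in all 10 alternatives that did not leave out a single array, and in 4 of the 6 fits without 1 array. It was lost without 20 mg/kg replicate 1 (adjusted p = 0.0752) or replicate 2 (adjusted p = 0.0697), with values of -0.90 in both. The call of 20 against 4 mg/kg held in 5 of those 10 and in 1 of the 6, without 4 mg/kg replicate 1, and the largest adjusted p was 0.175. The annotation lists 1 probe set for BAG3, so no other probe set could be set beside it. Of the 10 alternatives, those that changed the probe set or the level filter used the same BAG3 values as the main fit. They altered only the other genes tested with it, so they do not check its reading.

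BAG1, which couples HSP70 to the proteasome, read 972 and 1258 with vehicle, 1249.7 and 1256 after 4 mg/kg and 1156 and 1405 after 20 mg/kg, with overlapping groups and a change of 0.20 (SE 0.172) at 20 mg/kg. BAG5 read 2838 and 2949 with vehicle, 1902 and 2888 after 4 mg/kg and 2233 and 2442 after 20 mg/kg, and 4 mg/kg replicate 2 stood apart from its partner. Its changes were -0.31 at 20 mg/kg and -0.30 at 4 mg/kg, each with an SE of 0.227, and another probe set of BAG5 gave 0.02 and 0.31. BAG2, an inhibitor of the ubiquitin ligase CHIP, had changes of -0.09 at 20 mg/kg and 0.10 at 4 mg/kg.

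**Figure D2:**
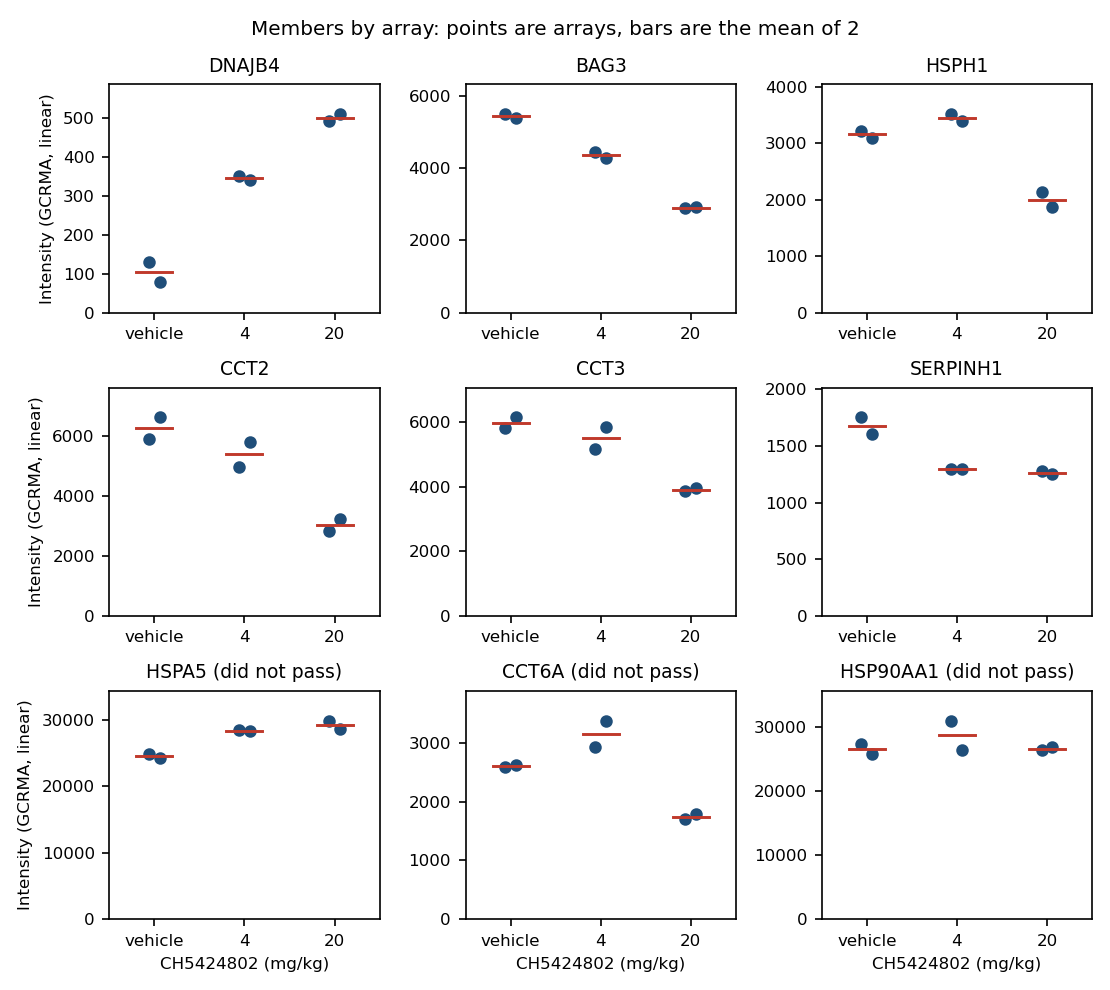
Intensity (linear scale, axes from 0) against dose for the 6 genes that passed at 20 mg/kg and for HSPA5, CCT6A and HSP90AA1, which did not; points are arrays and red bars the mean of 2. BAG3 and CCT2 step down with dose, DNAJB4 steps up, and HSPH1 and CCT6A have their lowest points at 20 mg/kg and their highest at 4 mg/kg.

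None of the 4 measured HSP90 cochaperones passed at either dose, where 4.33% of all tested genes passed at 20 mg/kg and 0.0584% at 4 mg/kg. CHORDC1, a zinc-binding cochaperone also known as morgana, read 849 and 406 with vehicle, 1412 and 1320.0 after 4 mg/kg and 1198 and 1291 after 20 mg/kg. All 4 treated arrays lay above both vehicle arrays, but vehicle replicates 1 and 2 differed widely, and the residual SD over the 3 groups was the highest of the 42 genes (0.438 log2 units). The changes were 1.08 (SE 0.393, adjusted p = 0.219) at 20 mg/kg and 1.22 (SE 0.393, adjusted p = 0.270) at 4 mg/kg. Without vehicle replicate 1 they were 1.61 (adjusted p = 0.0264) and 1.75 (adjusted p = 0.0335), and both passed.

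STIP1, or HOP, which bridges HSP70 and HSP90, read 1445 and 1609 with vehicle, 1297 and 1437 after 4 mg/kg and 1310.1 and 1114 after 20 mg/kg. Both 20 mg/kg arrays lay under vehicle, with a change of -0.34 (SE 0.118, adjusted p = 0.208), and a dimmer probe set gave -1.20. FKBP4, a peptidyl-prolyl isomerase of steroid receptor complexes, read 438 and 331 with vehicle, 331 and 331 after 4 mg/kg and 331 and 302 after 20 mg/kg, where several arrays share 1 value. PTGES3, or p23, which stabilises the ATP-bound form of HSP90, read 12428 and 10554 with vehicle, 12791 and 13843 after 4 mg/kg and 11549.5 and 12421 after 20 mg/kg, with a change of 0.06 (SE 0.105) at 20 mg/kg and 0.22 at 4 mg/kg.

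HSF1, the main transcription factor of the heat shock response, was measured at a low level and did not pass. It read 31.7 and 38.4 with vehicle, 31.6 and 31.7 after 4 mg/kg and 31.7 and 31.7 after 20 mg/kg. The treated arrays sat together with vehicle replicate 1, and only vehicle replicate 2 was higher. The change was -0.14 at both doses. Without vehicle replicate 1 it was -0.28 at both, a value that rests on vehicle replicate 2 alone against treated arrays that are nearly equal.

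The chaperonin TRiC, a ring of CCT subunits that folds actin and tubulin, had 2 of its 7 measured subunits lower at 20 mg/kg by test, where 4.33% of all tested genes passed. The median change of the 7 was -0.33 at 20 mg/kg and 0.16 at 4 mg/kg, against 0.00 for all tested genes at both. CCT2 read 5905 and 6619 with vehicle, 4979 and 5803 after 4 mg/kg and 2835 and 3220.5 after 20 mg/kg. The arrays ran downward with dose without overlap, with the larger step between 4 and 20 mg/kg. Its change was -1.05 (SE 0.123, adjusted p = 0.0416) at 20 mg/kg, a 2.07-fold lower level, and -0.22 at 4 mg/kg, and a further probe set gave -1.05 at 20 mg/kg.

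CCT3 read 5822 and 6134 with vehicle, 5169 and 5843 after 4 mg/kg and 3864 and 3942 after 20 mg/kg. The 20 mg/kg arrays lay under the other 4, and the 4 mg/kg and vehicle arrays overlapped. Its change was -0.61 (SE 0.0736, adjusted p = 0.0434) at 20 mg/kg and -0.12 at 4 mg/kg. Leaving out any 1 of the 6 arrays ended the calls of CCT2 (-1.14 to -0.96, adjusted p 0.0713 to 0.178) and of CCT3 (-0.65 to -0.58, adjusted p 0.0581 to 0.198).

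CCT6A read 2582 and 2620.0 with vehicle, 2934 and 3379 after 4 mg/kg and 1697 and 1787 after 20 mg/kg. It was high at 4 mg/kg and low at 20 mg/kg, with vehicle between them. Its change was -0.58 (SE 0.0818, adjusted p = 0.0552) at 20 mg/kg, just short of the threshold, 0.28 at 4 mg/kg and -0.85 (SE 0.0818, adjusted p = 0.0812) between 20 and 4 mg/kg. A further probe set of CCT6A gave -0.74, 0.23 and -0.98 in the same order. CCT4 read 8187 and 7910.4 with vehicle, 9132 and 10274 after 4 mg/kg and 9396 and 8729.9 after 20 mg/kg, with a change of 0.17 at 20 mg/kg and 0.27 at 4 mg/kg, neither of which passed. A far dimmer CCT4 probe set gave -0.06 at 20 mg/kg and -0.29 at 4 mg/kg.

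The remaining subunits had changes of -0.33 (CCT7), -0.31 (CCT5) and 0.10 (CCT8) at 20 mg/kg. CCT7, whose arrays stood in falling order with dose, passed without vehicle replicate 1 (-0.22, adjusted p = 0.0446) or vehicle replicate 2 (-0.45, adjusted p = 0.0469). CCT4 and CCT8 were the 2 measured subunits with values above vehicle at 20 mg/kg, though neither passed. Between 20 and 4 mg/kg the changes of all 7 were negative, from -0.85 to -0.06 with a median of -0.49, against -0.01 for all tested genes; 0 of the 7 passed limma's test and 3 stood at an unadjusted p under 0.05, as did 13.4% of all tested genes. In 5 of the 7, both 20 mg/kg arrays lay under both 4 mg/kg arrays, as in 22.8% of all tested genes.

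The 3 mitochondrial chaperones had their highest values at 4 mg/kg by their brightest probe sets. HSPA9, the mitochondrial HSP70 or mortalin, read 3975 and 4536 with vehicle, 4665 and 5813 after 4 mg/kg and 4268 and 4179 after 20 mg/kg. HSPD1, or HSP60, read 14057 and 14579 with vehicle, 17785 and 17073 after 4 mg/kg and 15338 and 14730.3 after 20 mg/kg. HSPE1, or HSP10, the lid of the HSP60 ring, read 2753 and 2648 with vehicle, 3479 and 3133 after 4 mg/kg and 2408 and 2596 after 20 mg/kg. In each gene both 4 mg/kg arrays lay above both vehicle arrays, as in 22.8% of all tested genes. They also lay above both 20 mg/kg arrays, again as in 22.8% of all tested genes.

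The changes at 4 mg/kg were 0.29 for HSPA9 (adjusted p = 0.419), 0.28 for HSPD1 (adjusted p = 0.150) and 0.29 for HSPE1 (adjusted p = 0.212), and none passed. At 20 mg/kg they were -0.01, 0.07 and -0.11. The next brightest HSPA9 probe set gave -0.45 at 20 mg/kg, with both arrays under vehicle. At 4 mg/kg it gave 0.09, with arrays (4049 and 4275) that overlapped vehicle (3573 and 4295). HSPD1 and HSPE1 lie head to head and share a promoter. The dimmer probe set of HSPD1 gave -0.07 at 4 mg/kg, unlike the brightest one.

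The ER chaperones had values on both sides of vehicle. SERPINH1 alone passed among the 12, at 20 mg/kg (8.33%, against 4.33% of all tested genes). HSPA5, or BiP, the ER HSP70 and a standard marker of the unfolded protein response, read 24963 and 24224 with vehicle, 28461 and 28320.2 after 4 mg/kg and 29917 and 28648 after 20 mg/kg. All 4 treated arrays lay above both vehicle arrays, in dose order. The change was 0.25 (SE 0.0335, adjusted p = 0.0508) at 20 mg/kg, 1.19 times vehicle, and 0.21 (SE 0.0335, adjusted p = 0.162) at 4 mg/kg, and neither passed. HSPA13, a small HSP70-like ATPase of the ER, read 485 and 360.0 with vehicle, 501 and 813 after 4 mg/kg and 671 and 773 after 20 mg/kg, and its change of 0.78 (SE 0.310, adjusted p = 0.247) at 20 mg/kg came with wide spread within groups.

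SERPINH1, or HSP47, the chaperone of procollagen, read 1751 and 1603 with vehicle, 1293 and 1295 after 4 mg/kg and 1281 and 1249 after 20 mg/kg. The treated arrays of both doses sat close together, under both vehicle arrays. The change was -0.41 (SE 0.0520, adjusted p = 0.0476) at 20 mg/kg and -0.37 (SE 0.0520, adjusted p = 0.150) at 4 mg/kg. The call at 20 mg/kg held without vehicle replicate 1 (-0.34, adjusted p = 0.0368) and was lost without any 1 of the other 5 arrays, with values of -0.47 to -0.39. At 4 mg/kg SERPINH1 passed without vehicle replicate 1 (-0.31, adjusted p = 0.0499). Summed intensities of the 10 fibroblast markers were 37881 to 40810 with vehicle, 37524 to 38694 after 4 mg/kg and 36926 to 41353 after 20 mg/kg. COL1A1 makes up most of that sum, so the sum says little of the other markers. None of the 7 over the level limit passed limma's test at 20 mg/kg, where 4.33% of all tested genes did. ACTA2, a smooth muscle actin, was the 1 at an unadjusted p under 0.05 (24.2% of all tested genes). ACTA2 read 941 and 1056 with vehicle, 780.1 and 780.1 after 4 mg/kg and 622 and 685 after 20 mg/kg, in falling order with dose as SERPINH1 did, with a change of -0.61 (SE 0.0813, adjusted p = 0.0508) at 20 mg/kg. FAP had a change of -0.63 (adjusted p = 0.218) at 4 mg/kg. Of the 7 markers, 3 had negative and 3 positive changes at 20 mg/kg. The positive ones were COL3A1 (0.29), COL1A2 (0.28) and POSTN (0.22), and COL1A1 stood at -0.02. Both 20 mg/kg arrays lay above vehicle in COL3A1 and POSTN (28.6% of the 7, against 24.5% of all tested genes) and below it in ACTA2 (14.3%, against 25.9%). Whether the values of these markers come from the human tumour cells or from mouse fibroblasts was not tested, nor was the part of either in the SERPINH1 result.

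DNAJB11, a J protein that serves BiP, read 7612 and 8479 with vehicle, 6930.2 and 7580.4 after 4 mg/kg and 5602 and 5411 after 20 mg/kg. The arrays ran downward with dose without overlap, and the change at 20 mg/kg was -0.55 (SE 0.0786, adjusted p = 0.0560). HSP90B1, or GRP94, the HSP90 of the ER, read 2641 and 2461 with vehicle, 3037 and 2875 after 4 mg/kg and 2404 and 2479 after 20 mg/kg. It was highest at 4 mg/kg, with changes of -0.06 at 20 mg/kg and 0.21 (adjusted p = 0.211) at 4 mg/kg. A dimmer HSP90B1 probe set gave -0.36 at 4 mg/kg, where replicate 1 read 195 and every other array 319.

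PDIA6, a protein disulfide isomerase that works with BiP, read 7717 and 8124 with vehicle, 5392 and 6491 after 4 mg/kg and 6004 and 6334 after 20 mg/kg. Its treated arrays lay under vehicle at both doses, with changes of -0.36 (adjusted p = 0.163) and -0.42 (adjusted p = 0.212) at 20 and 4 mg/kg. A dimmer PDIA6 probe set gave -0.05 at 20 mg/kg and 0.23 at 4 mg/kg, where both its arrays lay above vehicle. The disulfide isomerase PDIA4 and the lectin chaperone CALR had changes of -0.29 (PDIA4) and -0.32 (CALR) at 20 mg/kg, and of -0.39 (PDIA4) and -0.38 (CALR) at 4 mg/kg. For both genes, too, every treated array lay under both vehicle arrays, though a dimmer PDIA4 probe set gave 0.01 at 20 mg/kg and -0.03 at 4 mg/kg. PDIA3, CANX, DNAJB9 and DNAJC3 had changes of 0.03 to 0.15 at 20 mg/kg and -0.07 to 0.32 at 4 mg/kg.

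**Figure D3:**
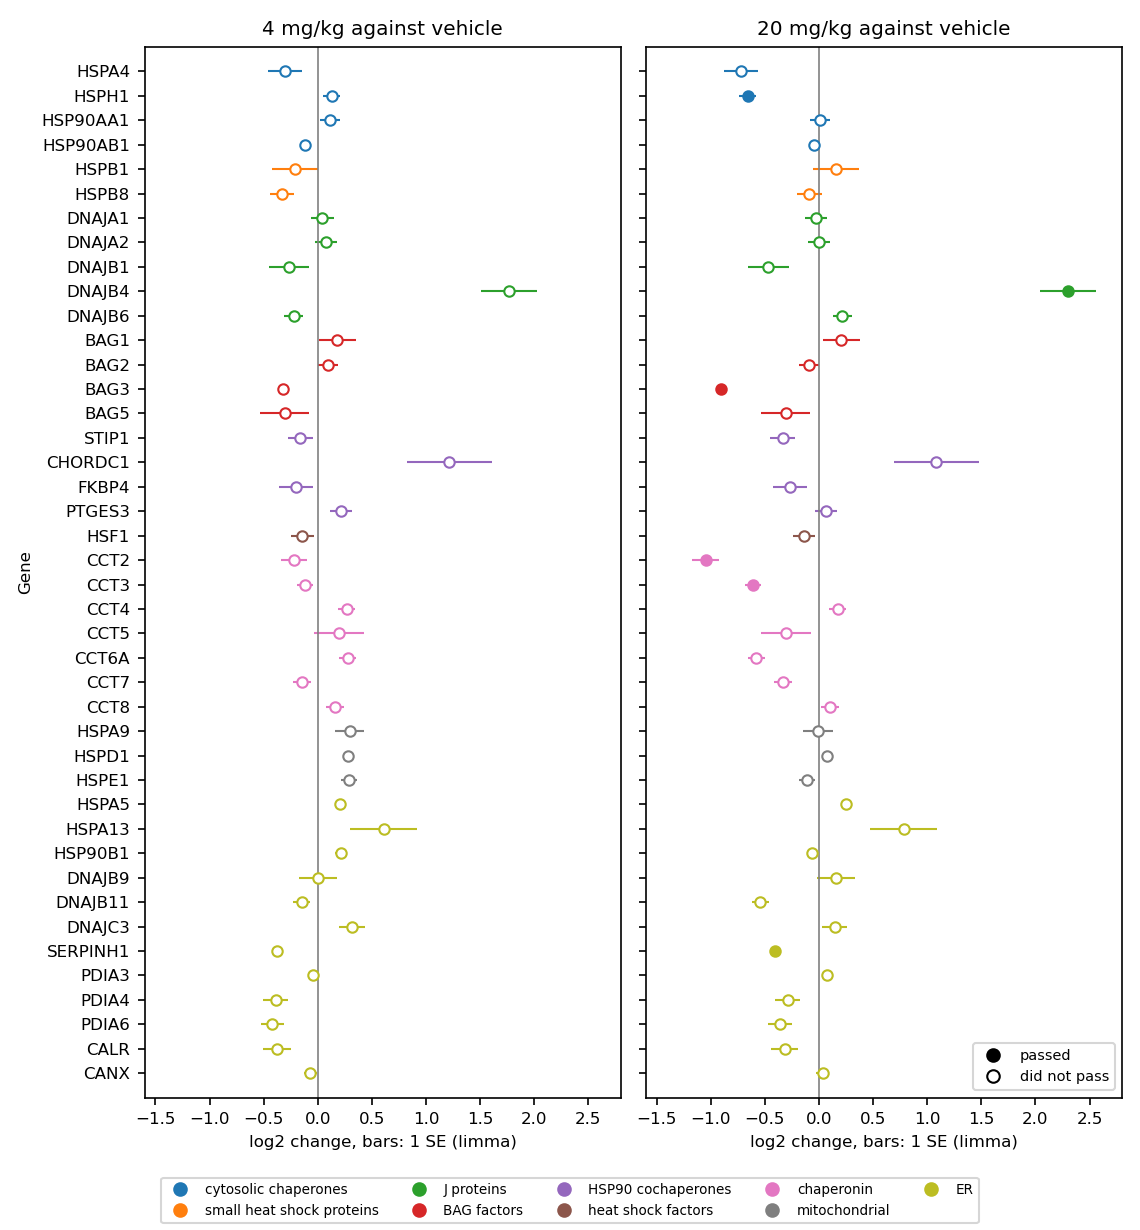
Log2 change of each tested gene at 4 mg/kg (left) and 20 mg/kg (right) against vehicle, with bars of 1 SE from limma; filled points passed at an adjusted p under 0.05 and colours mark the classes. Filled points are found at 20 mg/kg alone, with DNAJB4 at 2.30 on the right and CCT2 at -1.05 on the left, and the mitochondrial genes lie near 0.29 at 4 mg/kg.

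The residual SD of log2 intensity within groups had a median of 0.114 over the 42 genes and ran from 0.0245 in BAG3 to 0.438 in CHORDC1, against a median of 0.135 over all tested genes. At 20 mg/kg, 10 of the 42 genes (23.8%, against 20.6% of all tested genes) differed from vehicle by at least 0.5 on the log2 scale. Of these, DNAJB4, CHORDC1 and HSPA13 were higher, and CCT2, BAG3, HSPA4, HSPH1, CCT3, CCT6A and DNAJB11 were lower. The lower dose gave 3 genes (7.14%, against 13.9% of all tested genes), DNAJB4, CHORDC1 and HSPA13, all of them higher. In 5 members both arrays of some group held the same value (within 1e-06 log2 units), which lowers the spread that limma sees (HSP90AB1, DNAJA2, BAG2, FKBP4 and HSF1), and none of the 6 genes that passed was among them.

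Several members are read by more than 1 probe set. Of the 42 genes, 27 had at least 2 single-gene probe sets over the level limit. The probe sets of a gene gave no changes of opposite sign in 18 of the 27 at 20 mg/kg and in 15 at 4 mg/kg. Sizes differed where signs did not: the dimmer probe set of HSPH1 gave -1.89 at 20 mg/kg and that of STIP1 -1.20, against -0.66 and -0.34 by the brightest.

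**Figure D4:**
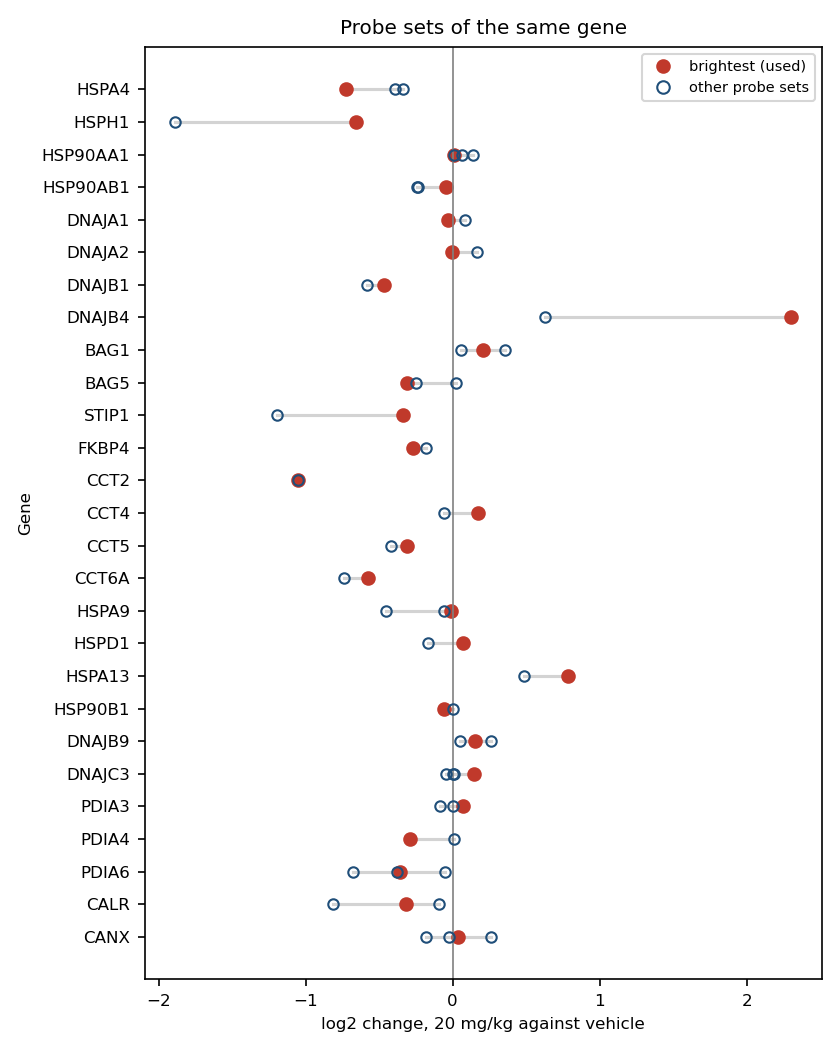
Log2 change at 20 mg/kg against vehicle for each single-gene probe set over the level limit, in the 27 genes with at least 2; the filled red point is the brightest, used above, and open points are the others. CCT2 gave -1.05 by both its probe sets, while DNAJB4 gave 2.30 and 0.63 and HSPH1 gave -0.66 and -1.89.

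Genes of related pathways outside the 46 were read from lists drawn up by function. Of 17 tested genes of the unfolded protein response, 1 passed at 20 mg/kg (5.88%, near the 4.33% of all tested genes), with a median change of 0.10, against 0.00 for all tested genes. EIF2AK3, or PERK, the ER stress kinase that slows translation, rose, with 1094 and 1054 with vehicle, 1365 and 1493 after 4 mg/kg and 1525 and 1649.6 after 20 mg/kg. Its treated arrays lay above vehicle in dose order, and the change at 20 mg/kg was 0.56 (SE 0.0686, adjusted p = 0.0445). XBP1, a transcription factor activated in ER stress, had a change of 0.54 (adjusted p = 0.0709). SEL1L and HERPUD1, which act in the disposal of ER proteins, had changes of 0.90 (adjusted p = 0.104) and 0.62 (adjusted p = 0.216), and TRIB3 had -0.96 (adjusted p = 0.232). DDIT3, or CHOP, which promotes cell death in lasting ER stress, read 130.1 and 130.1 with vehicle, 112 and 130.1 after 4 mg/kg and 210.3 and 130.1 after 20 mg/kg, where only 20 mg/kg replicate 1 was higher than the rest.

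Among other mitochondrial folding and protease genes, 1 of 11 passed at 20 mg/kg (9.09%, against 4.33% of all tested genes). CLPP, the proteolytic subunit of the mitochondrial ClpXP protease, fell, with 492 and 480.0 with vehicle, 377 and 433 after 4 mg/kg and 316 and 304 after 20 mg/kg. Its arrays ran downward with dose without overlap, and the change at 20 mg/kg was -0.65 (SE 0.0791, adjusted p = 0.0445). PHB1 and GRPEL1 had changes of -0.59 (adjusted p = 0.0944) and -0.39 (adjusted p = 0.145).

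In the other lists limma called 0 genes at 20 mg/kg: 0 of 12 other ER folding genes (2 at an unadjusted p under 0.05), 0 of 21 other cytosolic chaperones and cochaperones (4 at an unadjusted p under 0.05) and 0 of 7 genes of prefoldin and its partners (3 at an unadjusted p under 0.05), where 24.2% of all tested genes stood under that unadjusted limit. The ER folding genes with the largest changes were DNAJC10 at 0.59 (adjusted p = 0.290) and PPIB, an ER cyclophilin, at -0.38 (adjusted p = 0.0961). Among the cytosolic ones they were HSPA4L at 1.10 (adjusted p = 0.454), which read 23.9 and 6.30 with vehicle, DNAJB12 at -0.57, DNAJB14 at 0.55 and NUDC at -0.51. PFDN2, a prefoldin subunit that delivers substrates to TRiC, stood at -0.77 (adjusted p = 0.0508). The inducible HSP70 genes HSPA1A and HSPA1B had only shared probe sets and were not analysed here, and HSPA6 lay under the level limit with a mean log2 intensity of 3.55. At 4 mg/kg against vehicle and at 20 against 4 mg/kg, limma called 0 of the 68 genes of these 5 lists, with 14 and 9 at an unadjusted p under 0.05. Over all tested genes it called 0.0584% and 0.37%, with 17.0% and 13.4% under that unadjusted limit.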

How the data were processed

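Expression of human genes was measured in 6 arrays of tumour RNA, 2 per dose. The authors deposited intensities on a linear scale, for which the submitters' processing notes name GCRMA and R 2.10.0. The set of arrays that GCRMA normalized as a unit was not given in the sources used here. Per the platform annotation, 41097 of 54675 probe sets had 1 gene, 1801 several and 11777 none listed. The brightest single-gene probe set stood for each of 19775 genes, and the 10271 genes with a mean log2 intensity of at least 4 were kept.

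The deposited intensities were turned to log2 and a linear model was run in limma 3.58.1 under R 4.3.3 (lmFit and eBayes, 3 contrasts, two-sided, Benjamini-Hochberg over all tested genes within each contrast, threshold 0.05), without a replicate block. The model had 3 residual and 0.723 prior degrees of freedom, so a gene's spread rests mainly on its own 6 arrays unless that spread is small. The prior SD was 0.0418, which raised the spread used for BAG3 (residual SD 0.0245). Precision is limited by the number of arrays. The fit was tested on simulated data.

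Deviations of same-numbered arrays correlated at 0.15 (vehicle and 4 mg/kg), -0.12 (vehicle and 20 mg/kg) and 0.13 (4 and 20 mg/kg), so the numbers were not taken as pairs.

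The members, related lists and markers were chosen with earlier results of these data known. Values in every array are given for genes that passed, the 3 of each class with the largest change at 20 mg/kg, the 2 at 4 mg/kg and 14 listed genes. Genes of related lists are named where they passed, otherwise up to 4 a list by size of change. Alternatives changed the probe set, level filter, scaling, added constant, prior, arrays and block. Sequences and genome coordinates were not used here.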

Additional observations from a re-analysis of the deposited data

Results flagged for a closer look

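BAG3 differed between the doses by the test of the difference itself: its level at 20 mg/kg lay under that at 4 mg/kg by -0.58 on the log2 scale (limma adjusted p = 0.0342), with both 20 mg/kg arrays under both 4 mg/kg arrays.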

How the results depend on the processing

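All 17 alternatives were run, and all chaperone gene values that passed in either fit kept their direction. Against the 6 members that passed at 20 mg/kg, 12 passed with arrays centred on their medians. It was 1 without a level filter, 1 with a trended and robust prior and 1 in a fit of the 4 compared arrays alone. With the next brightest probe set 1 passed, BAG3, which was read there from the same single probe set as in the main fit. Without _s_at and _x_at probe sets 2 of 25 passed, DNAJB4 and CCT3. BAG3, HSPH1, CCT2 and SERPINH1 had no such probe set over the level limit and were not among the 25. At 4 mg/kg, centring gave 2 in place of 0. For 20 against 4 mg/kg, in place of 1, the mean of all probe sets gave 2, quantile normalization 3 and centring 3. Leaving out _s_at and _x_at probe sets, no level filter and the 4 compared arrays alone each gave 0. Leaving out _s_at and _x_at probe sets removed BAG3, the 1 member that had passed, so its call could not be kept there. Leaving out 1 array gave 0 to 6 passing members at 20 mg/kg, 0 to 5 at 4 mg/kg (5 without vehicle replicate 1) and 0 to 2 for 20 against 4 mg/kg; where it left a dose with 1 array, that array was taken to vary like the others.

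The replicate block, with numbers that do not pair the arrays, gave 2 passing members at 20 mg/kg, 0 at 4 mg/kg and 0 for 20 against 4 mg/kg.

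The median change of the members at 20 mg/kg was 0.012 without _s_at and _x_at probe sets, against -0.08. At 4 mg/kg, against -0.02, it was -0.13 with the next brightest probe set, 0.10 without _s_at and _x_at probe sets, -0.12 with centring and -0.095 to 0.022 without 1 array. Centring moved all log2 changes by -0.03 at 20 mg/kg, -0.10 at 4 mg/kg and 0.07 for 20 against 4 mg/kg. The cause of these differences was not tested.

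Over all tested genes, 445 passed at 20 mg/kg (5 to 1958 under the alternatives), 6 at 4 mg/kg (0 to 766) and 38 for 20 against 4 mg/kg (0 to 494). At 4 mg/kg 3 of the 6 were higher, against 30 of 41 with quantile normalization and 517 of 766 with centring. For 20 against 4 mg/kg 13 of 38 were higher, against 151 of 333 and 227 of 494. Of 2067 recomputed values of single members, 66 lost a call and 33 gained one. Most of the 2067 had no call to lose. Only the 6 members that passed at 20 mg/kg and BAG3 for 20 against 4 mg/kg had one. In alternatives that did not leave out a single array, calls at 20 mg/kg held in 6 of 11 for DNAJB4 and CCT3. They held in 5 of 10 for CCT2 and in 4 of 10 for HSPH1 and SERPINH1. With 2 arrays a group, a gene that did not pass is not shown to be unchanged.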
